A study of Homo sapiens with 6 samples.

Results

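A tandem cluster of human zinc finger genes is named after chromosome band 19p12. Of its genes, 34, from ZNF101 to ZNF254, are described here in Huh7 P and Huh7 LR cells. They were taken by name from the 515 genes of the deposited table whose symbol starts with ZNF, which left 481 other ZNF genes for comparison. The cluster was selected on the same comparison of Huh7 P with Huh7 LR that is described here, so the levels and fold changes of its genes are given as a description, without p-values. Counts of its genes past a limit are printed beside the share of all genes for the main fit only, and none of them is evidence of a difference. All 34 were found in the table, and GENCODE release 29 places all of them on chromosome 19 of GRCh38, from position 19668796 to position 24129961.

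Huh7 P is the parental line, an established human hepatocellular carcinoma cell line, labelled wild type and untreated. Huh7 LR was derived from it by exposure to lenvatinib, an inhibitor of several receptor tyrosine kinases, starting at 1 μM and reaching 20 μM over 10 months, and was kept at 20 μM thereafter. RNA from 3 samples of each line was sequenced. Poly(A) selection is taken from the sample labels, whose extraction text names an insect, so it is uncertain for these cells. The resistant line is a single derived line that was kept in the drug, so drug exposure, resistance and drift during culture cannot be told apart.

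KRAB zinc finger proteins are the largest family of human transcription factors. Their zinc fingers bind DNA, in many cases inside transposable elements, and their KRAB domain recruits TRIM28, which brings in the histone methyltransferase SETDB1, HP1 proteins and histone deacetylases and thereby silences the bound DNA. Their genes lie in clusters that arose by repeated duplication, above all on chromosome 19. ZNF91 and ZNF93 of the 19p12 cluster are well known as repressors of SVA and LINE-1 retrotransposons, respectively.

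Many of the genes share short sequences near their start sites. RefSeq promoters on GRCh38.p14, 300 bases long with 250 before and 50 after the transcript start, were found for 27 of the 34 genes. The 10 letters TCCAATCAGG, which contain a CCAAT box, occurred in 25 of these 27 promoters (92.6%), against 33 of 481 promoters of other ZNF genes (6.86%) and 106 of all 27305 promoters (0.388%), with both strands searched. The match nearest to the start lay between 24 and 83 bases before the start, at a median of 57. All 32 matches were on the coding strand. The 60 bases around it are given here, 5′ to 3′, for the abundant genes ZNF91 and ZNF714, the well-read genes at under 50% of the parental level (ZNF257, ZNF726, ZNF681 and ZNF85), ZNF493, which like ZNF257 has no exact match, and a pair of genes without a read, with the match or its closest form in capitals.

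ZNF91: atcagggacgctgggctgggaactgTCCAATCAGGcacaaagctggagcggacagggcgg
ZNF714: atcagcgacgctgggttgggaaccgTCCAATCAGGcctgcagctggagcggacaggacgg
ZNF726: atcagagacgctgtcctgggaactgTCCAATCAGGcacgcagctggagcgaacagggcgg
ZNF681: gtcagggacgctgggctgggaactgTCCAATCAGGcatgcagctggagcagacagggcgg
ZNF85: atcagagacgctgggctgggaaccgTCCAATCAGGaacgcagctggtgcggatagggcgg
ZNF257: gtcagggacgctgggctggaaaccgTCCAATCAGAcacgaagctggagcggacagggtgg
ZNF493: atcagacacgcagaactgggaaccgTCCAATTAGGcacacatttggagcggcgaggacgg
ZNF208: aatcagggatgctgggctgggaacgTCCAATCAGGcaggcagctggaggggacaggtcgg
ZNF492: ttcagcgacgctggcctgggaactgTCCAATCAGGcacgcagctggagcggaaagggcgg

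These windows lie at chr19:23395496-23395555 (minus strand) for ZNF91, chr19:21082119-21082178 (plus) for ZNF714, chr19:23914802-23914861 (plus) for ZNF726, chr19:23758915-23758974 (minus) for ZNF681 and chr19:20923173-20923232 (plus) for ZNF85. Those of ZNF257 and ZNF493, the 2 genes without an exact match, lie at chr19:22052406-22052465 and chr19:21397052-21397111 (both plus). Each holds a 10-mer that differs from it by 1 base. The windows of the unread genes ZNF208 and ZNF492 lie at chr19:22010963-22011022 (minus) and chr19:22634246-22634305 (plus).

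A further pair of 10-mers recurred. CTGTCACTCA was found in 21 of the 27 promoters and in 105 of all promoters (0.385%). It lay at a median of 125 bases before the start (range 69 to 130). GGCTTCCGGG was found in 19 of the 27 and in 128 of all promoters (0.469%). It lay at a median of 21 bases before the start, ranging from 26 before to 30 after it. The order of the 3 is shown by the 250 bases before the start of ZNF91 (chr19:23395472-23395721, minus strand), with the matches in capitals.

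ZNF91 upstream: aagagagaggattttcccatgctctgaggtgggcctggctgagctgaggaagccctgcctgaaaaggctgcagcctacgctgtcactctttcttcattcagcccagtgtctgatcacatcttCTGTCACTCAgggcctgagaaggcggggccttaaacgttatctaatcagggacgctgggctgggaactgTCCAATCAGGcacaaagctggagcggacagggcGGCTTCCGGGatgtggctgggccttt

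The 5-letter CCAAT itself was present in all 27 promoters, against 35.7% of all promoters. All 3 of the 10-mers were read from the cluster genes themselves, so their higher share in the cluster follows from how they were found, and a match is no evidence that a factor binds. The promoters were also poor in CpG, with a median observed-to-expected CpG ratio of 0.448 (range 0.333 to 0.723), against 0.805 for other ZNF promoters and 0.580 for all promoters.

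**Figure D1:**
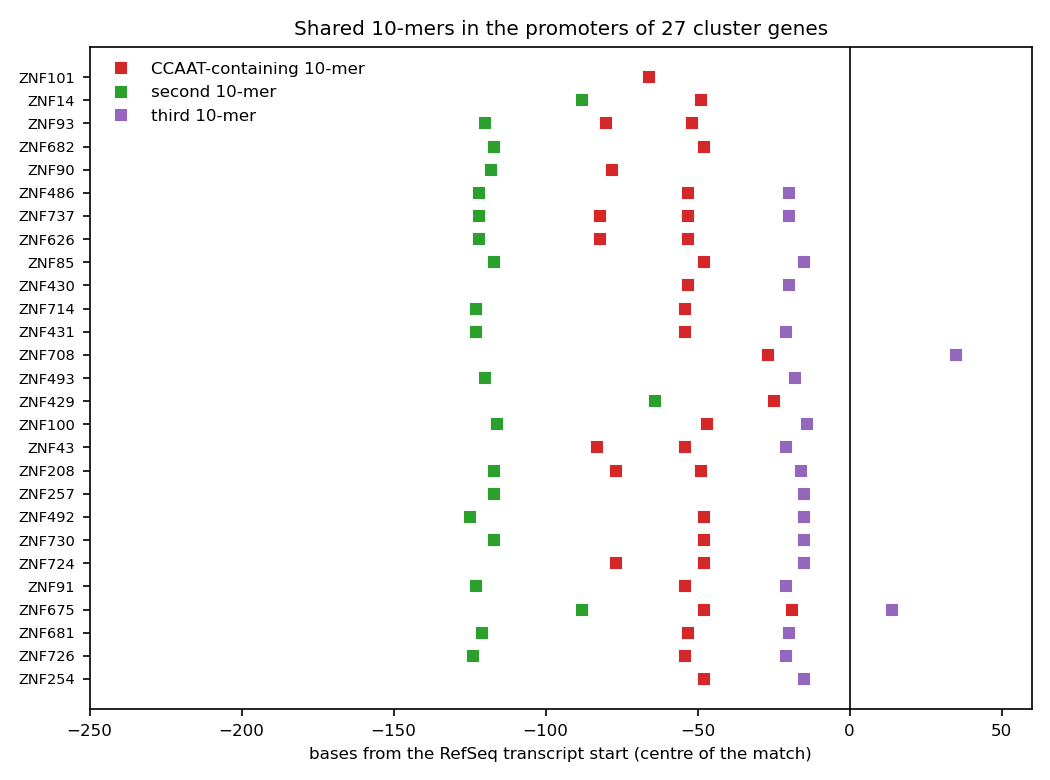
Position of the 3 shared 10-mers in the promoters of the 27 cluster genes with a RefSeq promoter, in chromosome order; the x axis gives bases from the transcript start and each square is 1 match. The CCAAT-containing 10-mer (red) lies at a median of 58 bases before the start over its 32 matches, and 7 genes carry it more than once.

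The encoded proteins differ in length and in their number of fingers. The longest open reading frames of the GENCODE transcripts gave proteins of 436 to 1291 residues. They held 8 to 36 matches (median 13) to a strict pattern of the C2H2 finger, the DNA-binding unit of this family. Fingers that depart from the pattern were not counted, so the full number can be higher. ZNF208 had 36 matches, ZNF729 had 34 and ZNF91 had 31, whereas ZNF506 had 8. Since the genes are copies of each other, reads can be shared between them. Of the 34, 17 shared no stretch of 100 bases with any other transcript and 30 shared under 5% of such stretches. The exceptions were ZNF724 with 52.1%, ZNF98 with 34.7%, ZNF492 with 18.7% and ZNF726 with 8.43%. Counts of these genes are therefore less certain.

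The 6 libraries held 62738937 to 71427573 counted reads. A count of 0 allows up to 3 reads in a library, which corresponds to 0.042 to 0.048 CPM (reads scaled to library size) and covers counting error only. CPM values were scaled by edgeR's TMM factors, which lay between 0.977 and 1.03. The hepatocyte identity of both lines was visible in all 10 hepatocyte markers, which summed to 44310 to 53446 CPM in Huh7 P and 57567 to 60627 CPM in Huh7 LR. The 7 fibroblast markers summed to 2.15 to 2.28 and 5.02 to 8.02 CPM, with DCN and THY1 at 0. The 6 leukocyte markers summed to 62.4 to 67.7 and 10.1 to 14.03 CPM, most of it from LYZ (60.2 to 65.5 and 7.74 to 10.1 CPM), and HLA-DRA and TYROBP were at 0. The part of these marker differences in the results was not tested. In such bulk samples, fewer cells of a type and less RNA per cell cannot be told apart.

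In both lines 27 of the 34 cluster genes had reads and 7 had none. Among those with reads, 16 exceeded 10 CPM in Huh7 P, 8 lay between 1 and 10 CPM, and ZNF90, ZNF486 and ZNF730 lay under 1 CPM. The reads of the whole cluster summed to 498.4, 474.6 and 508.9 CPM in the 3 Huh7 P libraries and to 306.4, 280.4 and 336.7 CPM in the 3 Huh7 LR libraries. The means were 494 ± 17.6 CPM (SD, n = 3) and 308 ± 28.2 CPM (SD, n = 3), so that Huh7 LR held 62.3% of the Huh7 P sum. The libraries of the lines did not overlap. On the FPKM scale, which is per transcript length, the sums were 120 ± 4.99 and 77.8 ± 7.02 (SD, n = 3), or 65.0%.

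**Figure D2:**
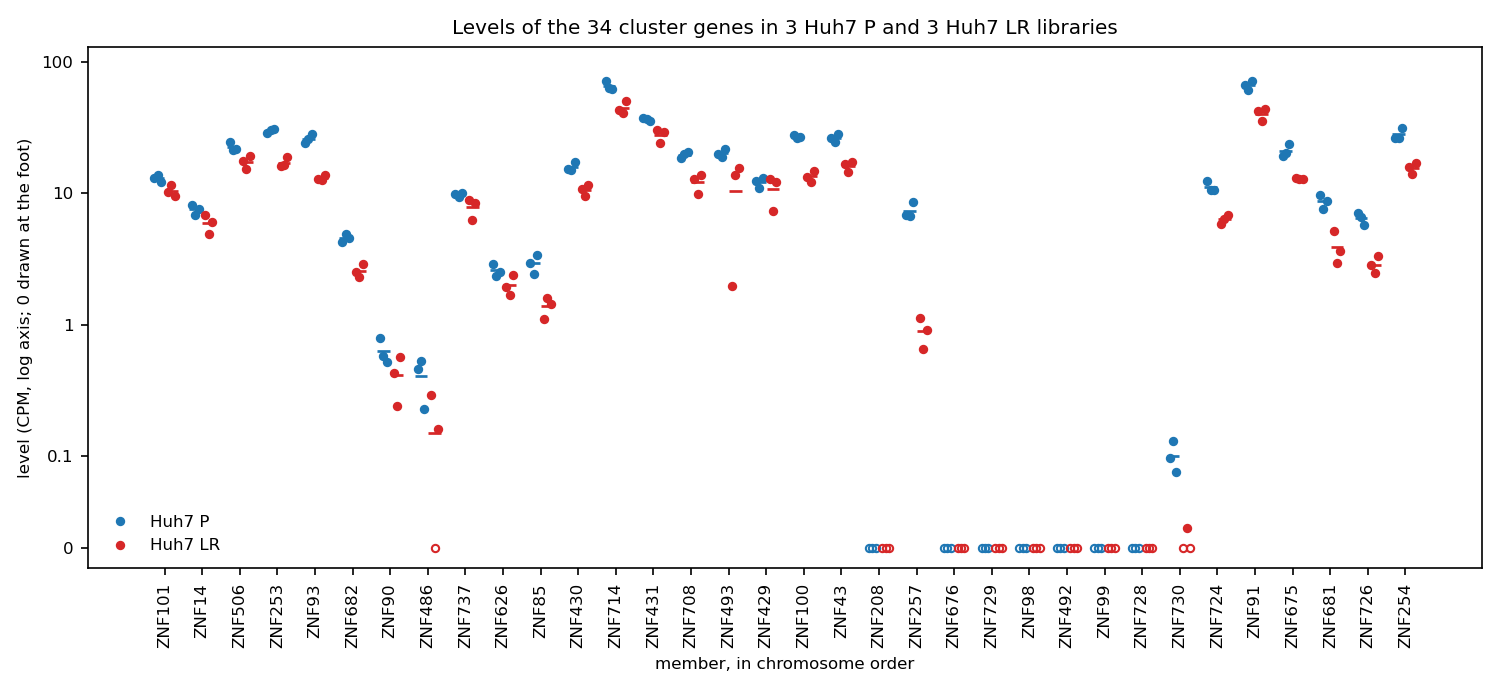
Level of each of the 34 cluster genes in CPM on a log axis, in chromosome order; filled points are single libraries of Huh7 P (blue) and Huh7 LR (red), short lines are means, and open points at the foot are counts of 0. The 7 genes from ZNF208 to ZNF728 other than ZNF257 are at 0 in all 6 libraries, and the red points lie below the blue ones for most of the other genes.

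Of the 27 genes with reads, 26 passed edgeR's filter on low counts. All 26 had a lower fitted level in Huh7 LR. Their median log2 fold change was -0.72, with quartiles of -0.98 and -0.44, and the extremes were -3.04 for ZNF257 and -0.17 for ZNF429. Other ZNF genes that could be tested (425 of 481) had a median of -0.12 with quartiles of -0.44 and 0.10, and all 17531 tested genes and loci had a median of 0.0046. An adjusted p under 0.05 with lower levels was reached by 19 of the 26 and one with higher levels by 0. Across all tested genes and loci the edgeR quasi-likelihood test gave such a result for 22.4% in the lower and 23.3% in the higher direction. The stricter limits of an adjusted p under 0.001 and a change over 2-fold were passed by 3 of the 26, all lower, against backgrounds of 1.78% lower and 4.43% higher. In 22 of the 26 all Huh7 LR libraries lay below all Huh7 P libraries, which held for 27.7% of all tested genes and loci. Since the cluster was chosen on this comparison, these counts only describe it.

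**Figure D3:**
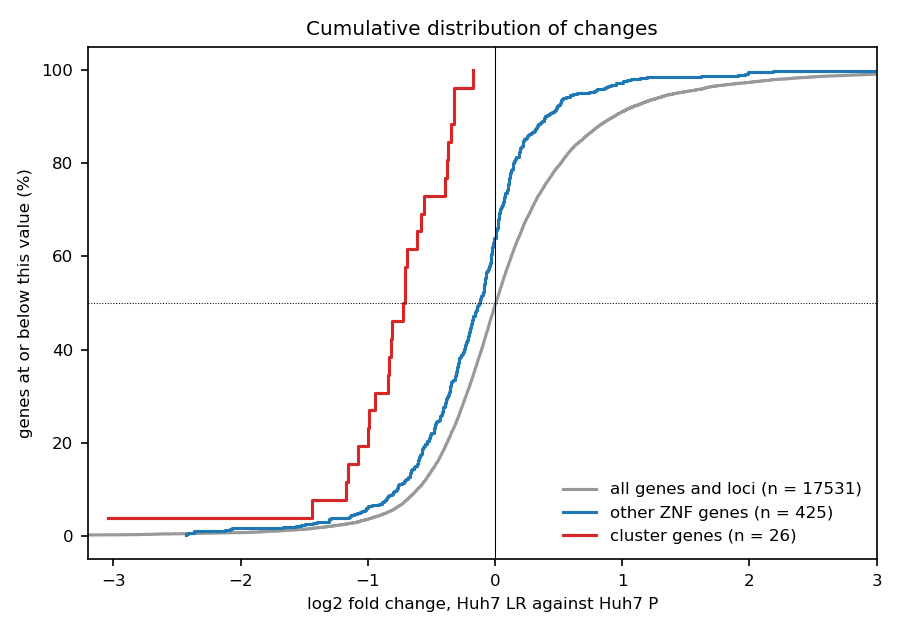
Cumulative share of genes (y axis, percent) at or below a given log2 fold change of Huh7 LR against Huh7 P (x axis) for the 26 fitted cluster genes (red), 425 other ZNF genes (blue) and all 17531 tested genes and loci (grey). The medians are -0.72, -0.12 and 0.0046.

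ZNF257 stood apart from the rest of the cluster. It was read at 6.84, 6.69 and 8.53 CPM in Huh7 P and at 1.12, 0.66 and 0.91 CPM in Huh7 LR. The log2 fold change was -3.04 ± 0.20 (SE, n = 3 per line), so that 12.2% of the Huh7 P level was left, with no overlap between the lines. On the log2(FPKM + 0.1) scale it was -2.32 and on log2(FPKM + 1), which shrinks low levels, it was -1.19. ZNF257 shared no 100-base stretch with another transcript.

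The other 2 of the 3 genes counted past the stricter limits were ZNF726 and ZNF681. ZNF726 was at 7.06, 6.56 and 5.78 CPM in Huh7 P and at 2.84, 2.47 and 3.31 CPM in Huh7 LR (log2 fold change -1.17 ± 0.15, SE). ZNF681 was at 9.78, 7.66 and 8.75 CPM and at 5.14, 2.97 and 3.66 CPM, a log2 fold change of -1.16 ± 0.19 (SE). Both were below 50% of the parental level in the fit, at 44.4% and 44.9%, and their libraries did not overlap. On log2(FPKM + 1) the values were smaller, at -0.78 for ZNF726 and -0.51 for ZNF681. They are neighbours near the centromeric end of the cluster.

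The well-known retroelement repressors were among the more abundant members. ZNF91 was at 66.7, 61.6 and 71.7 CPM in Huh7 P, close to ZNF714 as the highest of the cluster, and at 42.0, 35.3 and 43.6 CPM in Huh7 LR, with a log2 fold change of -0.72 ± 0.09 (SE). ZNF93 was at 24.0, 25.9 and 28.2 CPM and at 12.8, 12.7 and 13.9 CPM, with a log2 fold change of -0.99 ± 0.09 (SE). The lines did not overlap for either gene. Per transcript length, ZNF91 was at 12.03 ± 0.98 FPKM (SD, n = 3) in Huh7 P and at 7.69 ± 0.84 FPKM in Huh7 LR, and ZNF93 at 10.1 ± 0.77 and 5.21 ± 0.21 FPKM.

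ZNF714 was the highest member in Huh7 LR by mean, at 71.9, 63.3 and 62.4 CPM in Huh7 P and 43.2, 40.8 and 50.1 CPM in Huh7 LR (log2 fold change -0.56 ± 0.09, SE). ZNF675, which encodes a protein known to inhibit TRAF6 signalling, was at 19.2, 20.3 and 23.9 CPM and at 13.1, 12.8 and 12.9 CPM (-0.71 ± 0.10). Per transcript length ZNF714 was at 11.6 ± 1.06 and 8.11 ± 0.92 FPKM, and ZNF675 at 8.89 ± 0.78 and 5.74 ± 0.18 FPKM (SD, n = 3). ZNF91, ZNF714, ZNF93 and ZNF675 were the 4 highest members per length in Huh7 P, and each of them was lower in every Huh7 LR library than in any Huh7 P library.

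Differences near 2-fold were found in several parts of the cluster, slightly over it for ZNF85. ZNF85 was at 2.94, 2.45 and 3.41 CPM in Huh7 P and at 1.104, 1.60 and 1.45 CPM in Huh7 LR (log2 fold change -1.08 ± 0.20, SE). ZNF100 was at 27.7, 26.2 and 27.03 CPM and at 13.3, 12.3 and 14.8 CPM (-0.999 ± 0.092). ZNF254, the last gene, was at 26.4, 26.5 and 31.3 CPM and at 15.8, 14.2 and 16.98 CPM (-0.84 ± 0.10). None of these libraries overlapped between the lines. On log2(FPKM + 1) ZNF85 was at -0.48 and ZNF100 at -0.66.

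Slightly smaller differences were found, among others, for ZNF682, ZNF253 and ZNF43. ZNF682 was at 4.24, 4.94 and 4.602 CPM in Huh7 P and at 2.52, 2.33 and 2.90 CPM in Huh7 LR (-0.83 ± 0.15). ZNF253 was at 28.6, 30.6 and 30.7 CPM and at 16.1, 16.4 and 18.9 CPM (-0.81 ± 0.09). ZNF43 was at 26.6, 24.5 and 28.5 CPM and at 16.7, 14.6 and 17.4 CPM (-0.71 ± 0.10). The lines were again separate for each gene. On log2(FPKM + 1) ZNF682 was at -0.39 and ZNF43 at -0.47.

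ZNF724 was at 12.5, 10.6 and 10.7 CPM in Huh7 P and at 5.89, 6.42 and 6.80 CPM in Huh7 LR (log2 fold change -0.82 ± 0.12, SE). It shares 1487 of its 3322 exon bases (44.8%) with AC092329.3 on the same strand. The level of AC092329.3 itself was 7.29 ± 0.93 CPM in the parental and 7.14 ± 0.39 CPM in the resistant line (SD, n = 3; adjusted p = 0.872 by edgeR). With the reads of both genes summed, the log2 fold change of ZNF724 became -0.46, which is over 1.5 times smaller on this scale. How the reads of the shared exons were divided is not given in the sources used here.

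The difference of ZNF493 rested partly on 1 library. It was at 19.9, 18.97 and 21.7 CPM in Huh7 P and at 1.96, 13.7 and 15.7 CPM in Huh7 LR. The fitted log2 fold change was -0.95 ± 0.49 (SE), and without Huh7 LR replicate 1 it was -0.46 ± 0.11. The FPKM values of the same gene were 1.60, 3.12 and 3.67 in Huh7 LR and 4.27 to 4.54 in Huh7 P, so the low library stood apart less on that scale. The lines did not overlap in any case.

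Most of the weaker differences were found at the start of the cluster. The 7 members that kept over 70% of the parental level were ZNF101 (80.0%), ZNF14 (78.7%), ZNF506 (77.1%), ZNF737 (80.1%), ZNF626 (77.2%), ZNF431 (76.1%) and ZNF429 (88.7%). The first 5 of them lie before ZNF85. On log2(FPKM + 1) the log2 fold changes of ZNF14, ZNF506 and ZNF737 were over 1.5 times smaller, at -0.22, -0.24 and -0.19. With each library left out, ZNF14 ranged from -0.45 to -0.22 and ZNF737 from -0.42 to -0.17. ZNF429 was at 12.5, 10.9 and 13.2 CPM in Huh7 P and at 12.9, 7.33 and 12.2 CPM in Huh7 LR, so that a single Huh7 LR library was low. Without Huh7 LR replicate 2 its log2 fold change was 0.05 in place of -0.17. ZNF626, ZNF90 and ZNF486 also had overlapping libraries.

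The remaining members with reads were ZNF430, ZNF708 and 3 thinly read genes. ZNF430 had a log2 fold change of -0.58 ± 0.11 (SE) and ZNF708 one of -0.69 ± 0.12, each at over 10 CPM in Huh7 P and with separate lines. ZNF90 had 34 to 57 reads per Huh7 P library and 17 to 39 per Huh7 LR library. ZNF486 had 33, 33 and 15 reads in the parental libraries against 19, 0 and 11 in the resistant ones. These 2 genes were too thinly read for a firm value, with log2 fold changes of -0.61 ± 0.38 and -1.44 ± 0.76. ZNF730, which did not pass the filter, had 7, 8 and 5 reads in the parental libraries against 0, 2 and 0. Its summed reads in Huh7 LR were 9.99% of those in Huh7 P at equal depth, with an exact 95% interval of 1.13% to 41.1% that covers counting error only and leaves out the spread between samples.

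The genes without reads were clustered in turn. ZNF208, ZNF676, ZNF729, ZNF98, ZNF492, ZNF99 and ZNF728 had 0 reads in all 6 libraries, which at this depth allows each a level of up to 0.048 CPM in a library. They lie side by side between positions 21932958 and 23003176, interrupted by ZNF257 and by ZNF723, another ZNF gene outside the list that also had 0 reads. ZNF257, the only gene of this stretch with reads, was also the one with the lowest fold change among the 26 fitted cluster genes.

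Along the chromosome, the 10 genes from ZNF101 to ZNF626 had a median log2 fold change of -0.49. The 9 genes from ZNF85 to ZNF43 had a median of -0.69. Of the 7 genes from ZNF730 to ZNF254, 6 were fitted, with a median of -0.83. Across the 26 fitted genes the rank correlation of the fold change with position was -0.42. With the number of fingers matched by the pattern it was 0.0097, and with the FPKM level in Huh7 P 0.17. These values are descriptive, since all genes share the same 6 libraries. Genes on the plus strand (14 fitted) and on the minus strand (12 fitted) had medians of -0.83 and -0.71.

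**Figure D4:**
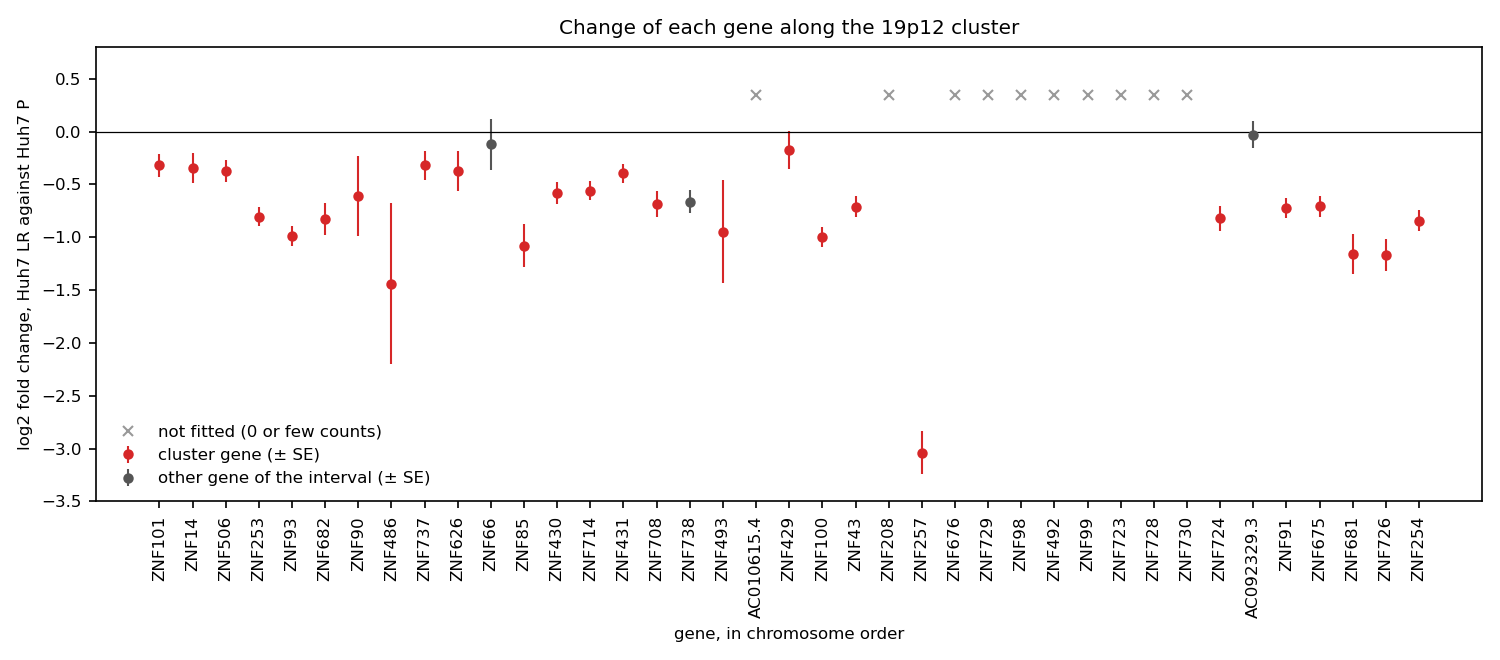
Log2 fold change of Huh7 LR against Huh7 P with its standard error for the genes of the interval in chromosome order; red points are cluster genes, grey points other genes of the interval, and crosses mark genes with too few or no reads to be fitted. All fitted cluster genes lie below 0, ZNF257 lies at -3.04, and ZNF66 and AC092329.3 lie near 0.

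Genes beside the cluster behaved differently from gene to gene. Among the 5 interval genes outside the list, ZNF738 was lower in Huh7 LR, at 7.02 ± 0.18 against 11.1 ± 0.93 CPM (SD, n = 3). The fitted difference was -0.66 ± 0.11 on the log2 scale (SE, edgeR adjusted p = 5.5e-04). ZNF66 was at 1.29 ± 0.35 and 1.18 ± 0.05 CPM (log2 fold change -0.12 ± 0.24, edgeR adjusted p = 0.721), which is within the spread of the replicates. AC010615.4 had 2 reads in all, and ZNF723 had none. In the 1 Mb before ZNF101, 31 of 34 listed genes were tested, of which 5 were lower and 6 higher by edgeR (adjusted p under 0.05), with a median log2 fold change of 0.0036. In the 5 Mb after ZNF254, on the side of the centromere, 0 genes were listed. The 820 tested genes of chromosome 19 without a ZNF name had a median of 0.04.

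ZNF genes elsewhere also differed between the lines. Of the 425 tested, edgeR gave an adjusted p under 0.05 to 136 with lower and 49 with higher levels in the resistant line, and 18 and 8 passed the stricter limits. The largest decreases among well-separated genes were those of ZNF439 (2.84 ± 0.33 to 0.53 ± 0.10 CPM, log2 fold change -2.43 ± 0.22), ZNF736 on chromosome 7 (8.50 ± 1.41 to 1.58 ± 0.29 CPM, -2.43 ± 0.18), ZNF577 (-2.41 ± 0.19), the read-through gene ZNF670-ZNF695 on chromosome 1 (-2.36 ± 0.26) and ZNF649 (-2.07 ± 0.19). ZNF577 and ZNF649 are neighbours on the long arm of chromosome 19. The largest increases were those of ZNF233 (0.58 ± 0.15 to 5.81 ± 0.16 CPM, 3.32 ± 0.20), ZNF853 (2.18 ± 0.35), ZNF862 (1.99 ± 0.16), ZNF467 (1.91 ± 0.25) and ZNF385A (1.62 ± 0.24). The adjusted p of these 10 genes was at most 4.6e-04 by edgeR. On log2(FPKM + 1) the 5 decreases were smaller, between -0.79 (ZNF577) and -0.48 (ZNF670-ZNF695), and the increases lay between 0.64 (ZNF385A) and 1.29 (ZNF233), with ZNF862 at 0.76 and no value for ZNF853, which did not pass the FPKM filter. The fitted decrease of ZNF257 was larger than that of any of the 425 tested ZNF genes outside the cluster.

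Chromosome 19 carries 7 other runs of at least 10 ZNF genes spaced by at most 500 kb. In the run from ZNF175 to ZNF331 (positions 51571298 to 53580269), 24 of 36 tested genes were lower and 1 higher, with a median log2 fold change of -0.49. From ZNF565 to ZNF573 (36182060 to 37817300), 11 of 25 were lower and 5 had positive fitted values that did not pass the test, with a median of -0.44. The other 5 runs had medians between -0.09 and 0.03. Across all tested genes and loci, 22.4% were lower and 23.3% higher by the same test. The genes of all 7 runs together had a median of -0.17 over 179 tested genes.

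**Figure D5:**
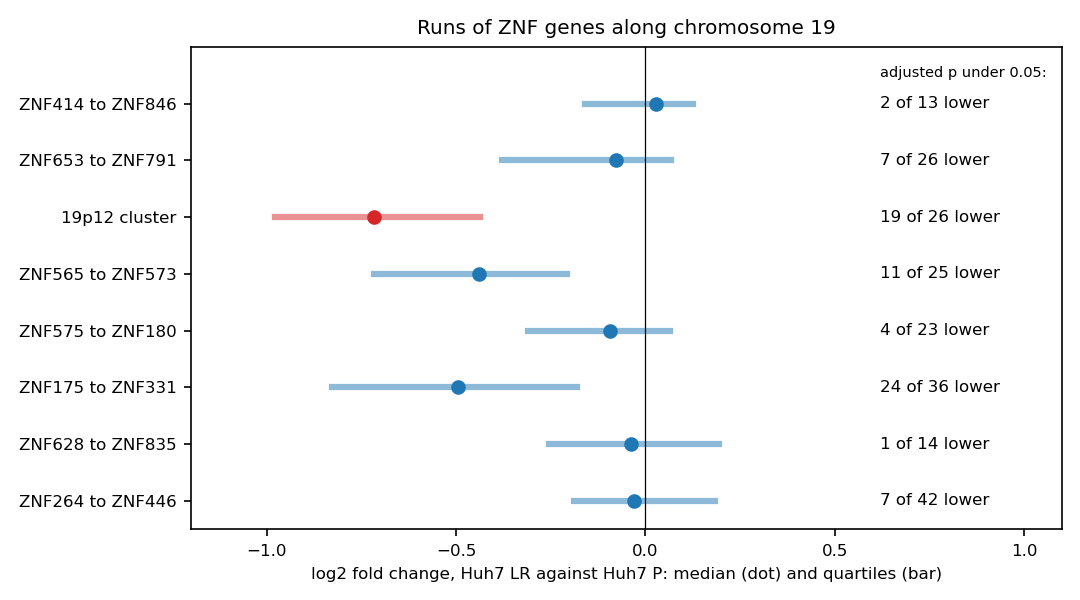
Median (dot) and quartiles (bar) of the log2 fold change of Huh7 LR against Huh7 P for each run of at least 10 ZNF genes along chromosome 19, in chromosome order, with the number of genes lower at an adjusted p under 0.05. The 19p12 cluster (red) lies at -0.72, the runs from ZNF175 to ZNF331 and from ZNF565 to ZNF573 lie at -0.49 and -0.44, and the other 5 lie near 0.

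The TCCAATCAGG sequence also occurred in ZNF genes outside the cluster. The other ZNF genes were the set against which the cluster was chosen, so their values are a description and not independent support. It was carried by 32 other ZNF genes of the deposited list, of which 30 were tested. On chromosomes other than 19, 10 of 12 tested genes were lower and 1 was higher, with a median log2 fold change of -0.72. On chromosome 19, 4 of 18 were lower and 1 was higher, with a median of -0.11. Of 11 tested ZNF genes outside the cluster with GGCTTCCGGG, 10 were lower, all 11 had negative fitted values, and the median was -0.60. Of 21 with CTGTCACTCA, 13 were lower and 2 higher, with a median of -0.43. These lists overlap and are not separate observations, since ZNF107 and ZNF680, for example, carry all 3 of the 10-mers. Across all tested genes and loci 22.4% were lower. Among genes of any name outside the cluster with TCCAATCAGG, 16 of 43 tested genes were lower and 8 higher, with a median of -0.18. With CTGTCACTCA, 21 of 48 were lower and 7 higher (median -0.14), and with GGCTTCCGGG, 22 of 73 were lower and 13 higher (median -0.10).

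Several carriers lie together on chromosome 7, and they are named here after their values were seen. ZNF107 was at 32.2 ± 1.87 CPM in the parental and 15.6 ± 0.74 CPM in the resistant line (SD, n = 3; log2 fold change -1.04 ± 0.08, edgeR adjusted p = 4.1e-06). ZNF680 was at 22.1 ± 3.43 and 11.3 ± 0.41 CPM (-0.97 ± 0.11, edgeR adjusted p = 6.0e-05). ZNF138 and ZNF92 had log2 fold changes of -0.75 ± 0.11 and -0.68 ± 0.10. ZNF862, also on chromosome 7, carries the sequence and was higher. ZNF66 inside the 19p12 interval carries it too and did not differ detectably. The window of ZNF107 (chr7:64666055-64666114, plus strand) is given with that of ERV3-1 (chr7:65006711-65006770, minus strand), because both resemble the windows of the cluster.

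ZNF107: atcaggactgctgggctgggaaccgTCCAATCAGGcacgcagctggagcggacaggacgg
ERV3-1: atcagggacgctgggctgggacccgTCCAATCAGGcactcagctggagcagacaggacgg

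ERV3-1 derives from an endogenous retrovirus and was on the list of retroelement-derived genes, of which 10 of 16 were in the table and 4 were tested. It was at 28.6, 24.8 and 24.7 CPM in Huh7 P and at 11.2, 11.4 and 13.03 CPM in Huh7 LR (log2 fold change -1.13 ± 0.10, SE, edgeR adjusted p = 7.8e-06). It shares 228 of its 2719 exon bases (8.39%) with the zinc finger gene ZNF117 on the same strand. ERVMER34-1, another retroviral envelope gene, was higher, at 0.47, 0.66 and 0.49 CPM against 1.78, 1.84 and 2.21 CPM (1.84 ± 0.24, edgeR adjusted p = 1.0e-04). PEG10 (log2 fold change 0.17 ± 0.08) and ERVK3-1 (0.04 ± 0.10) did not pass the test, with edgeR adjusted p of 0.0994 and 0.775. The table lists genes and not transposable element copies, so the repeats that these proteins bind were not measured.

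The partners of KRAB zinc finger proteins were measured through a list of 36 co-repressor gene names, of which TASOR and FAM208A name the same gene. All 35 genes were in the table, and 34 were tested. The list also holds the zinc finger genes ZNF274 and ZFP57. With edgeR's adjusted p under 0.05, 18 had lower and 1 had higher levels in the resistant line, against 22.4% lower and 23.3% higher among all tested genes and loci, and every fitted change was smaller than 2-fold. The median log2 fold change was -0.22, against 0.0046 for all genes and loci. TRIM28, the scaffold that the KRAB domain binds, was at 482, 491 and 478 CPM in Huh7 P and 354, 450 and 398 CPM in Huh7 LR (-0.27 ± 0.09, edgeR adjusted p = 0.0244), and this call was lost when any library other than Huh7 LR replicate 2 was left out. SETDB1, which methylates histone H3 lysine 9, was at 42.4 ± 1.91 and 43.1 ± 1.66 CPM (SD, n = 3; log2 fold change 0.02 ± 0.07, edgeR adjusted p = 0.818). ZNF274, which recruits SETDB1 to zinc finger gene clusters, was at 46.6 ± 3.04 and 47.6 ± 1.68 CPM (0.03 ± 0.07, edgeR adjusted p = 0.75).

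Of the HP1 genes, CBX5 was lower (-0.40 ± 0.09, edgeR adjusted p = 0.0047), whereas CBX1 (-0.09 ± 0.06) and CBX3 (-0.10 ± 0.07) did not pass the test, with edgeR adjusted p of 0.288 and 0.25. The maintenance DNA methyltransferase DNMT1 was lower, at 392 ± 4.26 against 312 ± 33.5 CPM (SD, n = 3; -0.33 ± 0.08, edgeR adjusted p = 0.0073). The largest difference of the list was that of the chromatin remodeller SMARCAD1, at 60.5 ± 3.495 against 35.5 ± 1.96 CPM (-0.77 ± 0.08, edgeR adjusted p = 1.7e-05), named after its value was seen. CHD3, a remodeller of the NuRD complex, was the higher member (0.25 ± 0.07, edgeR adjusted p = 0.0158), a call that was lost without Huh7 P replicate 2, Huh7 P replicate 3 or Huh7 LR replicate 3. Leaving out Huh7 P replicate 1 or 2 reduced the 18 lower genes to 10 and 11.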

How the data were processed

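The authors deposited, for 3 samples each of Huh7 P and Huh7 LR, raw read counts per gene without normalization and FPKM values scaled for transcript length and library size. The submitters' processing notes name TopHat2, Cufflinks, DESeq and the build mm10, although the identifiers are human Ensembl genes. The counting program, annotation and strand setting are not given in the sources used here. The labels' extraction text names an insect.

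The 34 text lines without a gene were left out, as were 0 sample columns, and 26184 genes and loci were kept. The counts were fitted with edgeR 4.0.16 (R 4.3.3), using filterByExpr (minimum count 10, total 15), TMM scaling and the quasi-likelihood test with Benjamini-Hochberg adjustment over all 17531 genes and loci tested. Standard errors were the log2 fold change over the square root of F. Alternatives used DESeq2 1.42.0 and limma 3.58.1 on the log2 of FPKM with 0.1 or 1 added (kept where 3 libraries reached 0.5 FPKM), DESeq2 size factors, a filter of 10 counts per library or none, a replicate block, members summed with exon-sharing genes, looser limits and each library left out. The procedures were tested on simulated data. Nothing states whether the 3 samples of a line came from separate passages, so p-values measure the spread between these samples. The main fit did not use the replicate numbers to pair the samples.

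Coordinates and exons are from GENCODE release 29 and promoters from RefSeq. The members, gene lists and tests were chosen with earlier results of these data known. Named genes were all members, the 5 largest changes each way of separated other ZNF genes of at least 1 CPM, and 7 fixed co-repressors. Library values were given for members past both limits and for the 4 highest FPKM levels. They were also given for the 12 largest changes among members with an edgeR adjusted p under 0.05. Library values of ZNF493 and ZNF429, where a single library was low, and reads of thinly read genes were added. Sequence features were computed in Python and figures with matplotlib.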

Additional observations from a re-analysis of the deposited data

How the results depend on the processing

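The median log2 fold change of the cluster genes kept its direction under every alternative run. It was -0.83 to -0.66 with each library left out and -0.51 on log2(FPKM + 1), where the pseudocount shrinks low values by construction. The summed level had a log2 ratio of -0.68 and of -0.75 to -0.62 with each library left out. The count past the stricter limits was 3, and was 5 by DESeq2, 1 on log2(FPKM + 1) and 2 to 4 with each library left out. Without Huh7 P replicate 1 or Huh7 LR replicate 2 it was 2. The shares of all genes past these limits in the alternative settings are not given here. The number of genes and loci tested also changed, from 13746 on log2(FPKM + 1) to 22978 by DESeq2. Of 357 values of single cluster genes, 344 moved by less than the spread between replicates, 12 moved further, mostly on the FPKM scale, and 1 changed sign: ZNF429, from -0.32 to 0.050 with each library left out. ZNF257 was at -1.19 on log2(FPKM + 1).

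Other ZNF genes had a median of -0.066 on log2(FPKM + 0.1) and -0.049 on log2(FPKM + 1), and ZNF genes of the other chromosome 19 runs had -0.069 and -0.057. On log2(FPKM + 1), 2 other ZNF genes were lower and 2 higher past the stricter limits. With each library left out, 4 to 8 other ZNF genes were higher past the stricter limits (4 without Huh7 P replicate 2 or 3), 10 to 18 co-repressors were lower and 0 to 1 higher, and 1 to 2 retroelement-derived genes were higher (2 without Huh7 LR replicate 1). On either FPKM scale 0 of the 3 retroelement-derived genes tested were higher, because the filter left out ERVMER34-1. Genes that had not passed the test changed sign. ZNF66 was at 0.17 on log2(FPKM + 0.1), 0.078 on log2(FPKM + 1) and -0.30 to 0.097 with each library left out. AC092329.3 was at 0.0046, 0.0025 and -0.11 to 0.073 in the same settings. With each library left out SETDB1 ranged from -0.0024 to 0.058 and ZNF274 from -0.023 to 0.061. The causes were not tested.

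Same-numbered samples correlated at 0.029 to 0.032 in their deviations from the line means, under the 0.1 used as a limit, although every sample correlated best with its own number. With a replicate block, 22 cluster genes in place of 19 had an adjusted p under 0.05 and 4 in place of 3 passed the stricter limits, and the median was -0.72. The shares of all genes with this block are not given here.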
